A study of Mus musculus with 13 samples.

Results

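The simple epithelial keratins Krt7, Krt8, Krt18, Krt19, Krt20 and Krt23 are 6 of the 55332 genes with values in the count table, and they were taken by name, with each Ensembl row matched to its symbol in GENCODE M21. RNA was sequenced from 13 mouse NUT carcinoma (mNC) tumors. In all of them Cre recombinase induces the chromosome translocation of the NUT carcinoma translocator (NCT) model, so that no group lacks it. The oral Sox2 wild-type (WT) tumors (n = 4) are labelled KRT14-Cre; NCT+/-, and the oral Sox2 knockout (KO) tumors (n = 2) are labelled KRT4Cre; NCT+/-; Sox2fl/fl, although the methods name KRT14-Cre as the only oral driver. The pancreatic WT tumors (n = 4) are Pdx1-Cre; NCT+/- and the pancreatic KO tumors (n = 3) Pdx1-Cre; NCT+/-; Sox2fl; fl. The driver and the tissue always go together, so a difference between tissues cannot be told apart from a difference between drivers. If the label of the oral KO tumors holds, neither can Sox2 genotype and driver among oral tumors, which touches oral KO against WT and the difference of the KO effects. Ages of the mice, and whether each tumor came from its own mouse, are not given in the sources used here, so p-values measure the spread between these tumors.

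Keratins are the intermediate filament proteins of epithelial cells, and each filament pairs a type I with a type II chain. The simple keratins are those of single-layered, glandular and ductal epithelia: Krt7 and Krt8 are type II chains, and Krt18, Krt19, Krt20 and Krt23 are type I chains. Krt8 and Krt18 are the classic pair of glandular cells, Krt7 and Krt19 are used as duct markers in the pancreas, Krt20 marks intestinal and gastric lining cells, and Krt5 and Krt14 form the corresponding pair in the basal layer of stratified epithelia such as the oral mucosa.

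On GRCm38, the members lie in the 2 keratin clusters of the mouse genome. Krt7 (ENSMUSG00000023039, chr15:101411043-101430313, plus strand), Krt8 (ENSMUSG00000049382, chr15:101996698-102004482, minus strand) and Krt18 (ENSMUSG00000023043, chr15:102028180-102032027, plus strand) are on chromosome 15, where Krt8 and Krt18 are 23.7 kb apart, point away from each other and have 0 protein-coding genes between them. Krt20 (ENSMUSG00000035775, chr11:99428403-99438150, minus strand), Krt23 (ENSMUSG00000006777, chr11:99477974-99493137, minus strand) and Krt19 (ENSMUSG00000020911, chr11:100140810-100148665, minus strand) are on chromosome 11. Krt20 and Krt23 are 39.8 kb apart, also with 0 protein-coding genes between them, whereas 52 lie between Krt23 and Krt19.

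The RefSeq promoter windows of GRCm38.p6 (250 bases before and 50 after the RefSeq start) were matched for 5 of the 6 members by symbol. The RefSeq starts are not those of the GENCODE spans given above. Those of both neighbouring pairs are shown, since Krt20 and Krt23 were the members with the largest differences between pancreatic genotypes and Krt8 and Krt18 are the classic pair of glandular cells. Capitals mark any match, on either strand, to 4 short motifs. The letters searched were TATAAA for the TATA box and GGGCGG for the core of Sp1 sites. For SOX factors they were ACAAAG. For CDX factors the letters were TTTATG. The windows are chr11:99438104-99438403 and chr11:99493071-99493370 on the minus strand, chr15:102004293-102004592 on the minus strand and chr15:102027966-102028265 on the plus strand.
Krt20: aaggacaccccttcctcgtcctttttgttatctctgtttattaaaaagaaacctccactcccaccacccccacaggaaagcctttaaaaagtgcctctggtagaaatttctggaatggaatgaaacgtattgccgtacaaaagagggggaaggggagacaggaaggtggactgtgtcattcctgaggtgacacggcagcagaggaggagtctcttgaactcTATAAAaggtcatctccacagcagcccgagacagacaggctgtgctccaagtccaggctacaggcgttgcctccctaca
Krt23: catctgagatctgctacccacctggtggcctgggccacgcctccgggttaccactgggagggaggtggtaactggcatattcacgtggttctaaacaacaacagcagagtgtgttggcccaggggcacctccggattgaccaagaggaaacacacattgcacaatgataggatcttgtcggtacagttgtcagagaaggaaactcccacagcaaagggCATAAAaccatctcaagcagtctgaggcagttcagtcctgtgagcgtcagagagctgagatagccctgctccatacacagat
Krt8: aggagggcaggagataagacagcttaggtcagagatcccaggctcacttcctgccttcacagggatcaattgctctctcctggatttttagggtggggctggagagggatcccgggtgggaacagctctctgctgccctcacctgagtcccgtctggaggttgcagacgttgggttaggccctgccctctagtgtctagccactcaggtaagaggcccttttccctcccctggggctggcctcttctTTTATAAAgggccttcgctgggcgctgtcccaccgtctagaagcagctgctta
Krt18: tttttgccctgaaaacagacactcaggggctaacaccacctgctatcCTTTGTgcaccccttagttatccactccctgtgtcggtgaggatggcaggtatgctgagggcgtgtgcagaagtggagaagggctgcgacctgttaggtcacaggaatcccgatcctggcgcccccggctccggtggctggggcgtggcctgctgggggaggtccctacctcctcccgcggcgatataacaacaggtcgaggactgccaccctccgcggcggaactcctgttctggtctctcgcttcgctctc

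The Krt20 window holds TATAAA from -29 to -24 relative to the RefSeq start. The Krt23 window matches TTTATG on the opposite strand from -32 to -27. In the Krt8 window matches to TATAAA on both strands (-1 to 4 and -3 to 2) overlap at the RefSeq start, which lies inside the GENCODE span of Krt8. Krt18 matches ACAAAG on the opposite strand from -203 to -198. The Krt7 window (chr15:101412153-101412452), which is not printed, lies wholly inside the GENCODE span of Krt7. It has 4 matches to GGGCGG and a GC content of 66.3%. This compares with 50% for Krt20, 53% for Krt23, 58% for Krt8, 61.3% for Krt18 and a median of 53% over all windows. Among 32544 windows of the same length, 13.6% hold TATAAA, 35.9% GGGCGG, 18.7% ACAAAG and 11.9% TTTATG on either strand. These matches describe letters and not binding sites.

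Estimated counts summed to between 11735031 and 20431977 in the oral KO tumors, 29393925 and 40419965 in oral WT, 40964171 and 46134532 in pancreatic WT and 89562488 and 120482588 in pancreatic KO tumors. Oral KO tumor 1 stood apart, with 59.5% of its counts in protein-coding genes against 84.5% to 91.7% in the others. Levels are given as CPM (counts divided by the library total and put on a common scale) with totals scaled by TMM over the 13 tumors. Sox2 was at 15.6 ± 4.66 CPM (SD, n = 4) in oral WT and 32.8 ± 2.40 CPM (SD, n = 4) in pancreatic WT tumors, and at 0.0390 CPM or less in every KO tumor. The squamous markers Trp63, Krt5 and Krt14 were present in every tumor, with lowest values of 439.76, 1134.8 and 700.03 CPM. Skeletal muscle markers (10 genes) summed to 5604.6 and 3089.5 CPM in oral KO tumors 1 and 2, to 571.24 CPM in oral WT tumor 4 and to at most 28.3 CPM in every other tumor.

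All 6 simple keratins were higher in pancreatic than in oral WT tumors, by 2.84-fold for Krt18 to 190-fold for Krt20. For each of them every pancreatic WT tumor was above every oral WT tumor, as for 13.8% of genes tested. In the pancreas, all 3 KO tumors lay below all 4 WT tumors in Krt20 and Krt23, as in 8.75% of genes tested, but neither passed the test. Krt7, Krt8, Krt18 and Krt19 overlapped between genotypes. In oral tumors no member passed the test between genotypes.

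**Figure D1:**
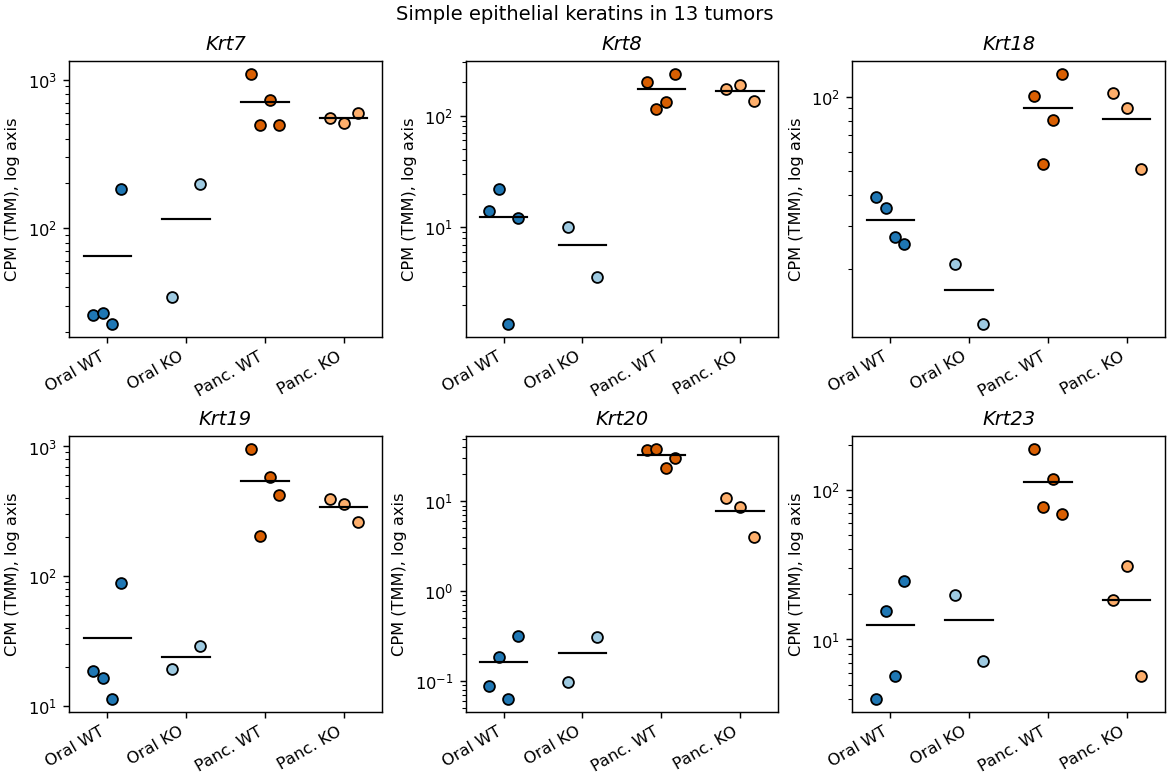
Level of each simple keratin in 13 tumors, as CPM on a log axis, by tissue and genotype; points are tumors and lines are group means. For every member the 4 pancreatic WT tumors sit above the 4 oral WT tumors, and for Krt20 and Krt23 the 3 pancreatic KO tumors sit below the 4 pancreatic WT tumors.

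The type II keratin Krt7, a marker of ducts and of transitional epithelia, was measured at 26.0, 26.9, 22.7 and 184 CPM in oral WT tumors 1 to 4, with 34.7 and 197 CPM in oral KO. In the pancreas it was at 1096, 496, 726 and 491 CPM in the WT tumors and at 554, 510 and 596 CPM in the KO tumors. One tumor of each oral group was thus far above its group, while the lowest pancreatic tumor was above the highest oral tumor. The group means were 65.0 ± 79.6 CPM (SD, n = 4) in oral WT, 116 ± 115 CPM (SD, n = 2) in oral KO, 702 ± 285 CPM (SD, n = 4) in pancreatic WT and 553 ± 43.2 CPM (SD, n = 3) in pancreatic KO tumors.

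Krt8, the type II partner of Krt18, was at 13.9, 22.2, 1.36 and 12.1 CPM in oral WT tumors 1 to 4, and oral KO tumors had 10.1 and 3.63 CPM. The pancreatic WT tumors had 201, 114, 132 and 237 CPM and the pancreatic KO tumors 173, 189 and 134 CPM. The lowest oral value, in oral WT tumor 3, rests on 43 counts, where the other oral WT tumors had 525 to 720. The processed pseudogene Krt8-ps shares 32.2% of the 31-base sequences of Krt8. Krt8-ps was at 0 counts in all 6 oral tumors and at no more than 0.343% of the Krt8 count in any pancreatic tumor. It had 1 to 3 counts in pancreatic WT and 26 to 68 counts in pancreatic KO tumors. The pancreatic KO tumors also had the larger total counts, and the part of this was not tested.

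Krt18, the type I partner, had the narrowest range as a ratio of its highest to its lowest tumor. It was at 39.3, 35.4, 26.9 and 25.3 CPM in oral WT tumors 1 to 4, and the KO tumors had 21.035 and 11.972 CPM. Both KO tumors thus lay below all WT tumors, as in 25.5% of genes tested. In pancreatic tumors it was at 101, 53.5, 81.0 and 124 CPM in WT and at 103, 90.3 and 50.9 CPM in KO, which overlap. The pseudogene Gm5200 shares 9.31% of its 31-base sequences and had at most 1 count in any tumor.

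Krt19, a type I keratin of ducts that lacks most of the tail domain of other keratins, was at 18.6, 16.4, 11.3 and 88.3 CPM in oral WT tumors 1 to 4, and oral KO tumors had 19.3 and 28.9 CPM. The highest value came from oral WT tumor 4, the same tumor that was highest for Krt7, Krt20 and Krt23 among oral WT tumors and the one with muscle markers. The pancreatic WT tumors had 961, 204, 582 and 425 CPM and the KO tumors 396, 360 and 264 CPM, which lie within the WT range.

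Krt20, the intestinal type I keratin, was close to the detection limit in oral tumors, with 4, 6, 2 and 14 counts in the WT and 1 and 8 counts in the KO tumors. These correspond to 0.164 ± 0.117 CPM (SD, n = 4) and 0.206 ± 0.150 CPM (SD, n = 2). In pancreatic WT tumors Krt20 had 37.4, 38.5, 23.5 and 30.3 CPM, and in pancreatic KO tumors 10.8, 8.76 and 4.00 CPM. The highest KO value was thus below the lowest WT value. Krt20 shares 0 of its 31-base sequences with another gene, and neither does Krt23.

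Krt23, a type I keratin of glandular epithelia, was at 3.99, 15.6, 5.67 and 24.7 CPM in oral WT tumors 1 to 4, and oral KO tumors had 19.8 and 7.21 CPM. It was at 189, 76.5, 118 and 69.0 CPM in pancreatic WT tumors and at 18.2, 31.1 and 5.68 CPM in pancreatic KO tumors. The pancreatic KO tumors lay near the oral range, with 2 of 3 under the highest oral tumor.

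The first comparison asks how tumors of the tissues differ when Sox2 is intact. With edgeR's quasi-likelihood test, where a gene is called if its Benjamini-Hochberg adjusted p is below 0.05 and it differs by more than 1 on the log2 scale, 6 of 6 members were called higher in pancreatic WT tumors, against 7.24% of 23164 genes tested. In 6 of 6 members every pancreatic WT tumor was above every oral WT tumor, against 13.8% of genes. Krt20 differed by 7.57 ± 0.46 on the log2 scale (SE, edgeR adjusted p = 1.78e-04), a fold that rests on 2 to 14 counts per oral WT tumor. Krt19 was 16.1-fold higher (log2 4.01 ± 0.79, SE, edgeR adjusted p = 0.00841) and Krt23 was 9.06-fold higher (3.18 ± 0.62, edgeR adjusted p = 0.00808).

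Of the type II members, Krt8 was 13.8-fold higher (log2 3.79 ± 0.70, SE, edgeR adjusted p = 0.00634) and Krt7 10.8-fold (3.43 ± 0.77, edgeR adjusted p = 0.0145). Krt18 differed least, by 2.84-fold (1.504 ± 0.26, edgeR adjusted p = 0.00475). Approximate 95% intervals, taken from the SE with a normal distribution, were 2.42 to 5.15 for Krt8 and 0.99 to 2.02 for Krt18 on the log2 scale. They do not overlap. With so few tumors such intervals, here and below, are narrower than the edgeR test would give. Among the alternatives in which a member could be fitted, only Krt7 lost its call (log2 3.41, edgeR adjusted p = 0.0572 with no count filter).

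Other cell types differed with the tissue. The 6 fibroblast markers summed to 8662 to 19001 CPM in oral WT and to 1117.7 to 2197.5 CPM in pancreatic WT tumors, and 6 of 6 were called lower in the pancreas. The intestinal and gastric markers (12 genes, 1 of them at 0 in all pancreatic WT tumors) summed to 4.84 to 15.1 CPM in oral WT and 26.9 to 248.65 CPM in pancreatic WT tumors. Mesothelial markers (6 genes) summed to 1.90 to 21.3 CPM and 10.9 to 22.6 CPM. Acinar markers (12 genes) overlapped, at 3.64 to 18.7 CPM and 5.45 to 15.2 CPM, and islet (7 genes) and hepatocyte markers (6 genes) reached 25.4 and 30.8 CPM at most. In bulk tumors, fewer cells of a type and less RNA per cell cannot be told apart, and the part of these cells in the keratin differences was not tested.

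Among KO tumors, 4 of 6 members were called higher in the pancreas, against 10.7% of 24787 genes tested. In 5 of 6, every pancreatic KO tumor was above every oral KO tumor, against 30.7% of genes. Krt8 differed by 4.68 ± 0.52 on the log2 scale (SE, edgeR adjusted p = 0.00637), Krt19 by 3.87 ± 0.30 (edgeR adjusted p = 0.00404), Krt20 by 5.12 ± 0.72 (edgeR adjusted p = 0.00870) and Krt18 by 2.36 ± 0.41 (edgeR adjusted p = 0.0128). Krt7 missed the threshold at 2.32 ± 0.70 (edgeR adjusted p = 0.0505), and its adjusted p was between 0.00170 and 0.157 over 15 alternatives. The Krt7 call was gained without oral KO tumor 1 (log2 1.498, adjusted p = 0.0250) and without oral KO tumor 2 (4.02, adjusted p = 0.0158). Without oral KO tumor 2 the Krt18 call was lost (1.97, edgeR adjusted p = 0.0543).

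Krt23 did not pass between KO tumors, at 0.49 ± 0.76 on the log2 scale (SE, edgeR adjusted p = 0.636), with an approximate 95% interval from -0.998 to 1.98. Its means were 13.5 ± 8.93 CPM (SD, n = 2) in oral KO and 18.3 ± 12.7 CPM (SD, n = 3) in pancreatic KO tumors. These tumors overlap, where the WT tumors of the tissues do not. Each comparison between tissues uses its own tumors, but the KO tumors carry the muscle markers given above in the oral tissue alone. Fibroblast markers summed to 9343.5 and 9384.3 CPM in oral KO against 2100.1 to 3621.6 CPM in pancreatic KO tumors. Of these markers, the collagens Col1a1, Col1a2 and Col3a1 were called lower in the pancreas, and Dcn, Lum and Pdgfra were not called. The part of the muscle and fibroblast markers was not tested.

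**Figure D2:**
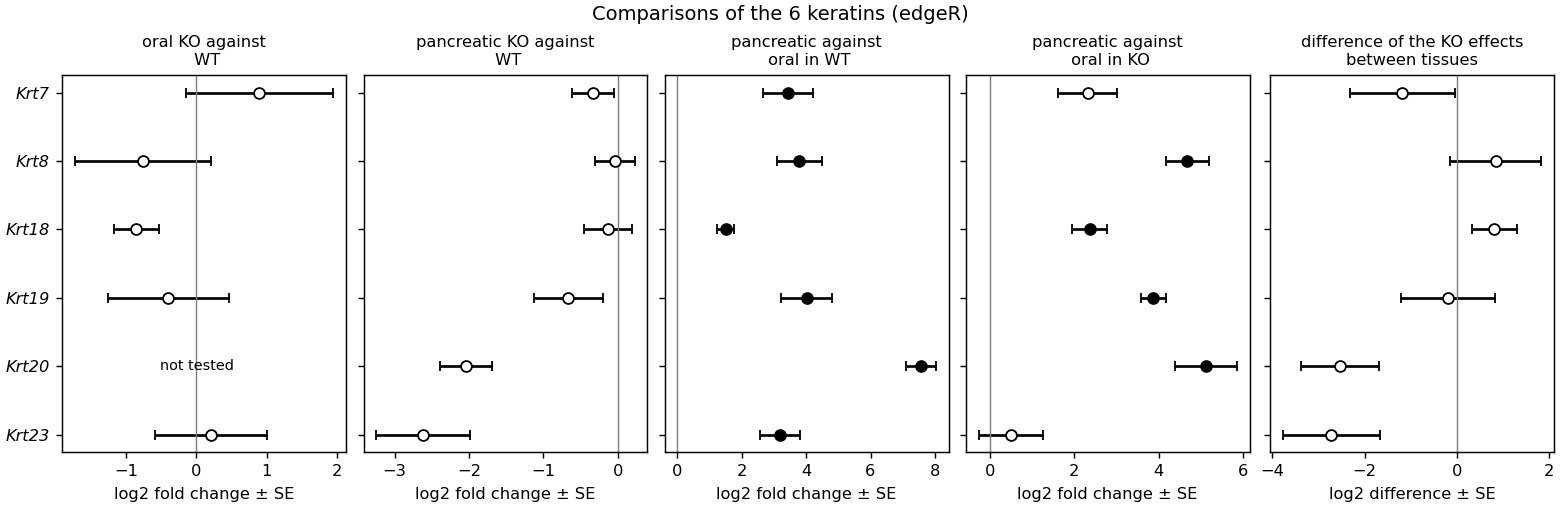
Log2 fold change of each simple keratin with its SE (edgeR) in the 4 comparisons of groups and the difference of the KO effects (pancreatic minus oral); filled points were called. All 6 points are filled between WT tumors and 4 of 6 between KO tumors, with none filled in the other panels, and Krt20 was not tested in oral tumors.

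Next, KO and WT tumors of the pancreas were compared. With edgeR, 0 of 6 members were called, where 0.629% of 24653 genes were, and 2 of 6, Krt20 and Krt23, had an unadjusted p under 0.05, against 15.9% of genes. Both had every KO tumor below every WT tumor, as did 8.75% of genes. Krt20 was at 7.86 ± 3.49 CPM (SD, n = 3) in KO and 32.4 ± 6.97 CPM (SD, n = 4) in WT tumors, a log2 fold change of -2.04 ± 0.35 (SE, edgeR adjusted p = 0.0552). Krt23 was at 18.3 ± 12.7 CPM (SD, n = 3) and 113 ± 54.8 CPM (SD, n = 4), a log2 fold change of -2.62 ± 0.63 (SE, edgeR adjusted p = 0.112).

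DESeq2, the tool the study used, called both Krt20 (log2 -2.04, adjusted p = 2.64e-06) and Krt23 (-2.62, adjusted p = 1.76e-04), against 4.51% of the same genes. Over 17 alternatives the log2 fold change stayed between -2.33 and -1.72 for Krt20 and between -3.24 and -2.20 for Krt23, and the adjusted p ran from 2.64e-06 to 0.147 and from 1.76e-04 to 0.255. Mesothelial markers summed to 5.97 to 9.66 CPM in KO against 10.9 to 22.6 CPM in WT tumors, with 6 of 6 genes above 0, and their part in these differences was not tested. The 12 duct genes summed to 7117.5 to 9384.8 CPM in KO and 941.4 to 4050.3 CPM in WT tumors. The KO tumors were higher in this sum, and its part was not tested either. Spp1 weighs most in it, with a mean count over all tumors of 205819 against 23485 for Sox9, the next. Over the list the median log2 fold change was 0.288, with 9 of 12 genes positive and 0 called. The intestinal and gastric markers overlapped, at 10.3 to 119.54 CPM in KO and 26.9 to 248.65 CPM in WT tumors. Pancreatic KO tumor 3, which was lowest for Krt20 and Krt23, had 283.67 CPM of acinar markers against 5.90 CPM or less in the other KO tumors. Without it Krt20 differed by -1.72 and Krt23 by -2.20 on the log2 scale.

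The other members were closer between pancreatic genotypes. Krt8 differed by -0.04 ± 0.27 (SE, edgeR adjusted p = 0.960), with an approximate 95% interval from -0.56 to 0.48 on the log2 scale. Krt18 differed by -0.13 ± 0.32 (edgeR adjusted p = 0.881, interval -0.77 to 0.50) and Krt7 by -0.33 ± 0.29 (edgeR adjusted p = 0.624, interval -0.89 to 0.23). For Krt19 the difference was -0.66 ± 0.47 (edgeR adjusted p = 0.540) and its interval, from -1.58 to 0.25, includes a difference of more than 1 on the log2 scale.

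In oral tumors 0 of 5 members tested were called between KO and WT. Over all 22342 genes tested 11.7% were called, and 6.44% of the protein-coding genes, to which the members belong. With protein-coding genes fitted alone, 0.165% were called. An unadjusted p under 0.05 was found for 1 of 5 members, against 35.4% of genes. DESeq2 called 0 of 5 as well, against 17.9% of genes. The member with an unadjusted p under 0.05 was Krt18, at 16.5 ± 6.41 CPM (SD, n = 2) in KO and 31.7 ± 6.71 CPM (SD, n = 4) in WT tumors, a log2 fold change of -0.86 ± 0.32 (SE, edgeR adjusted p = 0.105). Krt18 was also the only member with every KO tumor below every WT tumor, as 25.5% of genes were. Its adjusted p ran from 0.0469 to 0.404 over 16 alternatives.

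The remaining oral differences were smaller than their errors. Krt7 differed by 0.90 ± 1.05 on the log2 scale (SE, edgeR adjusted p = 0.572), Krt8 by -0.76 ± 0.97 (edgeR adjusted p = 0.605), Krt19 by -0.40 ± 0.86 (edgeR adjusted p = 0.768) and Krt23 by 0.21 ± 0.79 (edgeR adjusted p = 0.875). For Krt7 the sign turned with 1 tumor: it was 2.28 without oral WT tumor 4 and -0.79 without oral KO tumor 2. The sign of Krt19 also turned without oral WT tumor 4 (0.74). Krt20 was not tested, since only oral WT tumor 4 reached 10 counts. The muscle markers separate the oral genotypes as well, and their part was not tested.

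The difference of the KO effects between tissues (pancreatic minus oral) was tested in 1 fit of 13 tumors. With edgeR 0 of 6 members were called, against 12.3% of 25836 genes. An unadjusted p under 0.05 was found for 2 of 6, near the 34.0% of all genes that had one. Those were Krt20, at -2.54 ± 0.85 on the log2 scale (SE, edgeR adjusted p = 0.0605), and Krt23, at -2.73 ± 1.05 (edgeR adjusted p = 0.0929). DESeq2 called both (adjusted p = 0.0210 and 0.0349), against 18.3% of the same genes. Without oral WT tumor 4, edgeR called 3 of 6, against 15.3% of 25618 genes: Krt7 at -2.55 (adjusted p = 0.0349), Krt20 at -3.14 (adjusted p = 0.0246) and Krt23 at -3.30 (adjusted p = 0.0465). The oral side of the Krt20 value rests on 1 to 14 counts per tumor.

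Compared per length (CPM divided by the median length in kb of the gene's coding transcripts), the order of the members differed between tissues. In pancreatic WT tumors Krt19 (345 ± 202, SD, n = 4) and Krt7 (297 ± 120) led and did not differ beyond their spread. Krt8 (87.4 ± 29.6), Krt23 (72.3 ± 35.0) and Krt18 (62.7 ± 20.98) followed close together, and Krt20 was last (16.8 ± 3.62). In pancreatic KO tumors (n = 3) Krt7 (234 ± 18.3) and Krt19 (216 ± 43.3) again led, and Krt8 (84.4 ± 14.5) and Krt18 (56.8 ± 19.05) came ahead of Krt23 (11.7 ± 8.11) and Krt20 (4.08 ± 1.81). Krt7 depends on the length used: with its longest transcript it was at 172 ± 69.5 CPM per kb (SD, n = 4) in pancreatic WT and 135 ± 10.6 CPM per kb (SD, n = 3) in pancreatic KO tumors, below Krt19, and at 15.9 ± 19.4 CPM per kb (SD, n = 4) in oral WT tumors, below Krt18 and Krt19. The other members have the same length either way.

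In oral WT tumors (n = 4) Krt7 (27.4 ± 33.6 CPM per kb), Krt18 (22.1 ± 4.67) and Krt19 (21.3 ± 23.2) could not be ordered beyond their spread. Krt23 (7.97 ± 6.13) and Krt8 (6.32 ± 4.37) were lower and Krt20 was at 0.0853 ± 0.0607. Among oral KO tumors (n = 2) Krt7 was at 49.0 ± 48.5, Krt19 at 15.3 ± 4.28, Krt18 at 11.5 ± 4.46, Krt23 at 8.64 ± 5.71, Krt8 at 3.51 ± 2.35 and Krt20 at 0.107 ± 0.0781 CPM per kb.

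The basal keratins Krt5 and Krt14 exceeded every simple keratin per length in each group. Ranked per length among 53 keratin genes, Krt5 and Krt14 held ranks 1 and 2 in oral WT, pancreatic WT and pancreatic KO tumors, and Krt10 and Krt14 did so in oral KO tumors. Krt7 ranked 17 in oral WT, 13 in oral KO, 10 in pancreatic WT and 8 in pancreatic KO tumors. Krt19 ranked 21, 18, 9 and 9 in the same groups and Krt8 30, 27, 14 and 13.

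The 6 members together held 1.13% to 1.92% of keratin CPM per kb in oral WT, and 0.664% and 3.08% in oral KO. In pancreatic tumors they held 14.7%, 3.63%, 8.05% and 6.55% in WT and 6.66%, 6.68% and 6.93% in KO. Every pancreatic tumor was above every oral tumor in this share, and the pancreatic genotypes overlapped.

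The Krt18 to Krt8 ratio per length also separated the tissues. It was 3.84, 2.17, 26.9 and 2.86 in oral WT tumors 1 to 4, with 2.83 and 4.498 in oral KO, so Krt18 exceeded Krt8 in 6 of 6. It was between 0.638 and 0.838 in pancreatic WT and between 0.519 and 0.814 in pancreatic KO tumors, so Krt8 exceeded Krt18 in 7 of 7. The ratio of 26.9 belongs to the tumor with 43 counts of Krt8. Because both tissues use the same lengths, the separation does not depend on them.

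**Figure D3:**
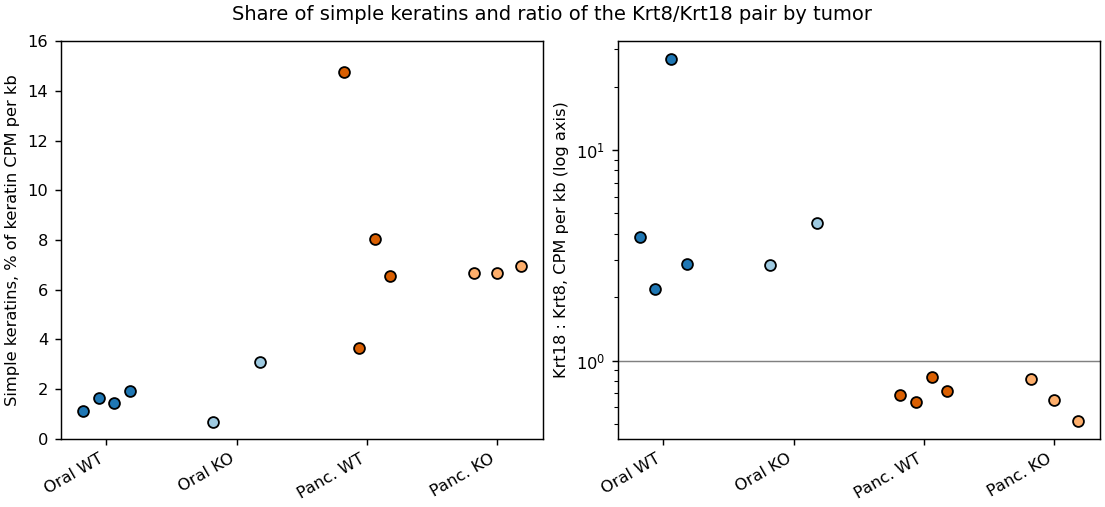
Left, the 6 simple keratins as a percent of the CPM per kb of 53 keratin genes; right, the Krt18 to Krt8 ratio in CPM per kb on a log axis, with a line at 1. Each point is a tumor, all oral tumors are above 1 in the ratio and all pancreatic tumors below it.

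The makeup of the simple keratin mRNA also varied among oral tumors. Krt18 made up 45.7%, 36.3% and 47.0% of the summed CPM per kb of the members in oral WT tumors 1 to 3, but 10.1% in oral WT tumor 4, where Krt7 made up 44.9% and Krt19 32.3%. In oral KO tumor 2, 71.4% was Krt7. In pancreatic tumors the makeup was more even: Krt7 held 27.8% to 47.6%, Krt19 25.8% to 44.0% and Krt18 5.08% to 11.6%. Krt23 held 5.92% to 9.71% in pancreatic WT and 0.687% to 3.16% in pancreatic KO tumors, and Krt20 1.38% to 3.97% and 0.393% to 0.846%, so that for both the genotypes did not overlap.

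**Figure D4:**
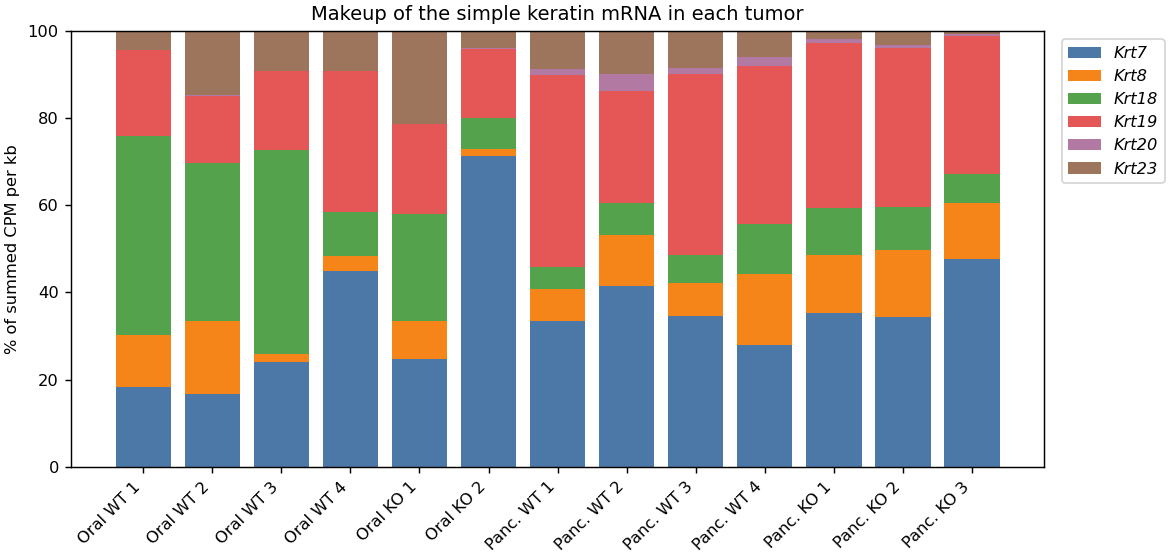
Share of each member in the summed CPM per kb of the 6 simple keratins, in percent, for each of 13 tumors (1 bar per tumor). Krt18 is the largest part of oral WT tumors 1 to 3, and Krt7 and Krt19 are the 2 largest parts of each pancreatic tumor at the median transcript length used here.

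Within groups, members did not all vary together. After the mean of each tissue and genotype group was subtracted from log2 CPM, Pearson's r over 13 tumors was 0.832 for Krt7 and Krt19, 0.684 for Krt7 and Krt20, 0.584 for Krt19 and Krt23, 0.533 for Krt20 and Krt23, 0.517 for Krt8 and Krt18 and -0.371 for Krt7 and Krt18. The points of each pair come from the same libraries, and oral WT tumor 4 and both oral KO tumors lie far out for Krt7. The oral KO group has 2 tumors, so their deviations from its mean are equal and opposite. By the same measure, over 13326 protein-coding genes with at least 10 counts in every tumor, the closest patterns were Wnk2 (0.925) and Slc30a1 (0.923) for Krt7 and Lmbr1 (0.953), Kctd21 (0.941) and Yipf2 (0.939) for Krt8. They were Rasip1 (0.920), Adcy4 (0.888) and Sema7a (0.872) for Krt18, Ccdc88c (0.953), Sel1l3 (0.948) and Scn8a (0.927) for Krt19 and Ube2h (0.920), Atp1b1 (0.919) and Trex2 (0.916) for Krt23. These are the highest of many values and describe these tumors.

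Genes of simple epithelia were compared as a list of 23. For this list and those below, 7.24% of all genes tested were called higher and 9.3% lower in the pancreas between WT tumors. Between KO tumors these shares were 10.7% and 14.6%. Between WT tumors, 16 of 23 were called higher in the pancreas and 0 lower, with a median log2 fold change of 1.48, where the median of all genes was -0.005 and that of the 6 members 3.61. The 5 with the smallest adjusted p were Elf3, an epithelial transcription factor (4.47 ± 0.54, SE, edgeR adjusted p = 0.00135), the protease inhibitor Spint2 (1.04 ± 0.15), the tricellular junction protein Lsr (1.48 ± 0.22), the protease St14 (1.23 ± 0.19) and the claudin Cldn7 (4.14 ± 0.67). Epcam and Cdh1, epithelial adhesion molecules, differed by 1.64 ± 0.27 and 1.57 ± 0.34, which is less than each member but Krt18. Between KO tumors 10 of 23 were called higher, among them Cdh1 (2.01 ± 0.21), Lsr (2.43 ± 0.28), Epcam (3.48 ± 0.43), Spint2 (1.93 ± 0.26) and St14 (1.70 ± 0.24).

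Between genotypes, edgeR called 0 of 23 of these genes in the pancreas (10 with an unadjusted p under 0.05; 4 called lower by DESeq2) and 0 of 23 in oral tumors (2 and 1). The most abundant, Cdh1 and Ehf, differed by -0.53 ± 0.17 and -0.48 ± 0.32 in the pancreas and by -0.84 ± 0.46 and -0.10 ± 0.65 in oral tumors (log2, SE). The difference of the KO effects was called for Epcam (1.79 ± 0.50) and Elf3 (-2.70 ± 0.74), calls that were lost in 8 and 10 of 21 alternatives. The shares over all genes, for this list and those below, follow in the order pancreas, oral tumors and difference of the KO effects. An unadjusted p under 0.05 was found for 15.9%, 35.4% and 34.0%. DESeq2 called 4.51%, 17.9% and 18.3%, and edgeR 0.629%, 11.7% and 12.3%.

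Of 12 pancreatic duct genes, 8 were called higher and 2 lower in pancreatic than in oral WT tumors (median log2 1.87). Those called higher included the ciliary protein gene Pkhd1 (3.64 ± 0.69), the transcription factor Onecut1 (3.02 ± 0.69), the secreted phosphoprotein Spp1 (3.46 ± 0.78) and the chloride channel Cftr (4.33 ± 1.00), and the water channel Aqp1 (-1.34 ± 0.29) and the RNA-binding Bicc1 (-1.21 ± 0.28) were lower. Between KO tumors 5 were called higher, among them Spp1 (6.36 ± 0.49), Sox9 (3.87 ± 0.44), Car2 (3.05 ± 0.59) and Pkhd1 (3.93 ± 0.93, lost in 4 of 14 alternatives). In the pancreas 0 of 12 were called between genotypes (2 with an unadjusted p under 0.05; 1 called by DESeq2), and the most abundant, Spp1 and Sox9, differed by 2.27 ± 0.77 and 0.68 ± 0.50. In oral tumors 0 of 11 were called, 5 had an unadjusted p under 0.05 (35.4% of all genes) and 2 were called by DESeq2 (17.9%). Spp1 was at -0.50 ± 0.51 and Sox9 at -1.12 ± 0.65 there. For the difference of the KO effects 0 of 12 were called (4; 2 by DESeq2), with Spp1 at 2.84 ± 1.09 and Sox9 at 1.88 ± 0.88.

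Among 11 genes whose proteins anchor or organise keratin filaments, 5 were called higher in pancreatic than in oral WT tumors (median log2 0.91): the desmosomal Pkp2 (1.98 ± 0.29), Pkp1 (1.13 ± 0.26) and Dsp (1.34 ± 0.34) and the plakins Evpl (2.34 ± 0.49) and Ppl (2.35 ± 0.61), the last of which was lost in 6 of 18 alternatives. Between KO tumors 1 was called, Fam83h (1.33 ± 0.25). Between genotypes 0 of 11 were called in the pancreas (3 with an unadjusted p under 0.05; 2 called lower by DESeq2) and 0 of 11 in oral tumors (4; 1 by DESeq2). The most abundant, Dsp and Pkp1, differed by -0.79 ± 0.19 and -0.22 ± 0.24 in the pancreas and by 0.33 ± 0.45 and 0.18 ± 0.36 in oral tumors. The difference of the KO effects was called for Evpl (-2.53 ± 0.69) and Pkp2 (-1.82 ± 0.55), calls lost in 9 and 13 of 21 alternatives.

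The keratins of stratified epithelia moved less uniformly between tissues than the members. Of 7 basal and stress keratins, 2 were called higher in pancreatic WT tumors, Krt5 (1.10 ± 0.23) and Krt6a (1.43 ± 0.39, lost in 6 of 18 alternatives), and 1 lower, Krt15 (-2.12 ± 0.50). Between KO tumors 3 were called higher, Krt5 (2.49 ± 0.25), Krt17 (1.86 ± 0.33) and Krt14 (1.37 ± 0.42), the last of which was lost in 9 of 15 alternatives. Of 10 suprabasal keratins, Krt4 (2.88 ± 0.38) and Krt13 (2.23 ± 0.44), the pair of internal stratified epithelia, were called higher and Krt76 (-4.37 ± 0.56), Krt2 (-7.21 ± 1.08) and Krt24 (-9.94 ± 1.22) lower in pancreatic WT tumors. Between KO tumors 6 of 10 were called lower in the pancreas, led by Krt4 (-2.53 ± 0.23), Krt13 (-2.86 ± 0.34), Krt24 (-7.72 ± 1.16), Krt78 (-3.11 ± 0.47) and Krt80 (-1.68 ± 0.36).

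Between pancreatic genotypes, the listed keratins that passed the edgeR test were suprabasal, but this rests on the threshold. Krt20 had an edgeR adjusted p of 0.0552, and DESeq2 called Krt20 and Krt23 as well as 4 of 8 suprabasal keratins tested. Krt4 (-3.46 ± 0.28, SE, edgeR adjusted p = 0.00256) and Krt13 (-3.69 ± 0.43, edgeR adjusted p = 0.0163) were called lower in KO tumors, and the Krt13 call was lost in 4 of 17 alternatives. Both log2 differences are larger than those of Krt20 and Krt23, whose difference from them was not tested. Among basal and stress keratins 0 of 7 were called (3 with an unadjusted p under 0.05; 1 by DESeq2), with Krt5 at 0.22 ± 0.21 and Krt14 at 0.04 ± 0.31. In oral tumors Krt4 was called higher (2.08 ± 0.41) and Krt15 lower (-3.11 ± 0.73) in KO tumors, each lost in 7 of 16 alternatives. The difference of the KO effects was called for Krt4 (-5.46 ± 0.53), Krt13 (-5.14 ± 0.67) and Krt5 (1.33 ± 0.33), with the Krt5 call lost in 5 of 21 alternatives and the other two in 0.

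Of 4 other intermediate filament genes, 0 were called between WT tumors of the tissues (0 with an unadjusted p under 0.05; 0 by DESeq2), with Vim at -0.50 ± 0.40 and Nes at 0.29 ± 0.37. In oral tumors Synm, a muscle intermediate filament gene, was called higher in KO tumors (2.23 ± 0.50), a call lost in 7 of 16 alternatives, and between KO tumors Des (-3.68 ± 0.19), the muscle intermediate filament gene, and Synm (-1.63 ± 0.30) were called lower in the pancreas. In pancreatic tumors 0 of 4 were called (2; 0 by DESeq2), with Vim at 1.36 ± 0.56 and Nes at -0.22 ± 0.29, and the difference of the KO effects was called for Synm (-2.52 ± 0.58). Des did not pass between oral genotypes (3.46 ± 1.61, edgeR adjusted p = 0.175).

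**Figure D5:**
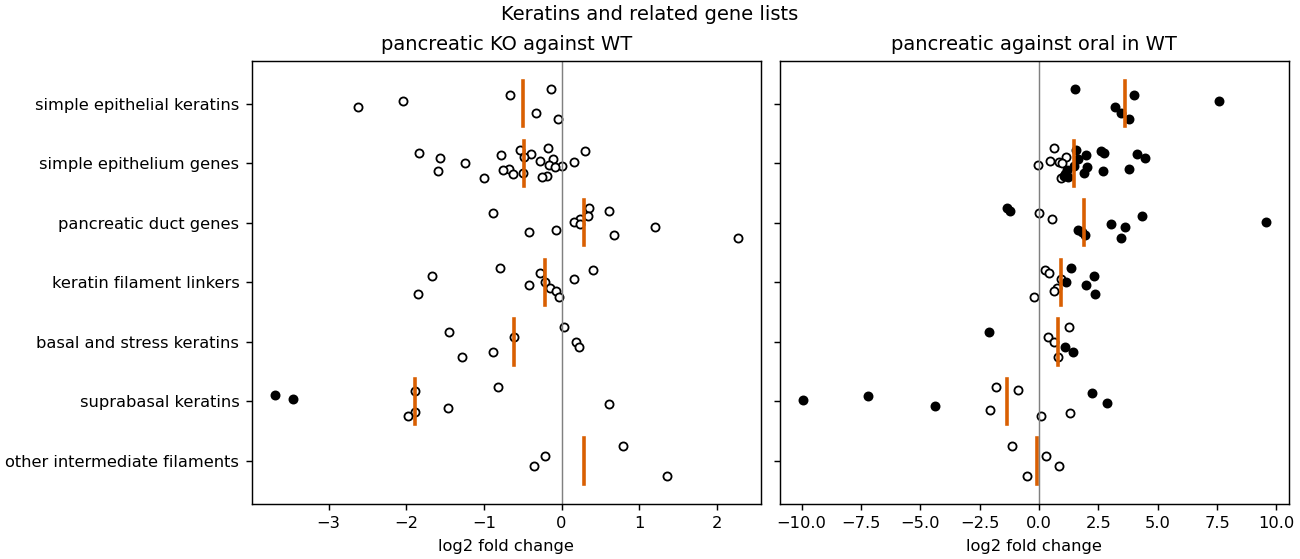
Log2 fold changes (edgeR) of the simple epithelial keratins and 6 related gene lists, for pancreatic KO against WT (left) and pancreatic against oral WT tumors (right); each point is a gene, filled points were called and orange lines are list medians. On the right all 6 simple keratins are filled, and on the left Krt4 and Krt13 in the suprabasal row are the only filled points.

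Of the remaining marker lists, salivary gland markers (10 genes) summed to at most 14.3 CPM in oral WT, 8.83 CPM in oral KO, 42.1 CPM in pancreatic WT and 52.6 CPM in pancreatic KO tumors. In each pancreatic group 5 of these genes were at 0 in all tumors. Between WT tumors only Aqp5 of 4 tested was higher in the pancreas (log2 2.39 ± 0.46, SE), and the median was -0.59. Between KO tumors Aqp5 was at 3.97 and Lpo at -2.21. Merkel and taste cell markers (9 genes), which matter because Merkel cells carry Krt8, Krt18 and Krt20, summed to 12.03 to 22.6 CPM in oral WT, 21.9 to 43.8 CPM in oral KO, 17.1 to 23.5 CPM in pancreatic WT and 25.9 to 34.1 CPM in pancreatic KO tumors. All 3 pancreatic KO tumors were thus above all 4 pancreatic WT tumors in this sum. Its genes went both ways: of 7 tested between pancreatic genotypes, 4 had a positive log2 fold change, the median was 0.221 and 0 were called. Airway markers (6 genes) summed to 28.2 to 127.78 CPM in oral WT, 19.4 to 79.0 CPM in oral KO, 18.1 to 145.7 CPM in pancreatic WT and 45.7 to 67.8 CPM in pancreatic KO tumors. Endothelial markers (5 genes) ran from 74.3 to 186.92 CPM and leukocyte markers (7 genes) from 85.1 to 556.74 CPM over the 13 tumors. Their part in the keratin values was not tested.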

How the data were processed

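Bulk RNA of 13 mouse tumors was sequenced after ribosomal RNA depletion with a stranded kit. The authors trimmed reads with Trim Galore 0.6.10, checked them with FastQC 0.12.1, quantified them with kallisto 0.50.0 in stranded mode on GENCODE M23 (GRCm38) and summed transcripts per gene with tximport. The deposited values are estimated counts, not normalized, and 27.3% are not whole. Of 56085 rows, 55332 have values.

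Estimated counts were rounded to whole numbers. A gene was tested when 2 or more of the tumors compared had 10 or more counts, in R 4.3.3 with edgeR 4.0.16 (TMM, robust quasi-likelihood, Benjamini-Hochberg over all genes tested). Fits used the groups compared, and all 13 tumors for the difference of KO effects. Symbols, positions and lengths came from GENCODE M21, promoters from RefSeq. Kallisto splits reads shared with a copy by estimation, so shared 31-base sequences are given. Antisense genes overlap Krt7 (Gm671) and Krt8 (Gm36026), on the other strand. The number of tumors, more than counting error, limits the precision, except for Krt20 in oral tumors.

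The members and gene lists were chosen with earlier results of these data known. Named genes are the 6 members in every comparison, the called genes of the 6 related lists (at most 5 a direction, smallest adjusted p; where none was called, the 2 of highest mean count), copies of members, and the 3 genes most like a member. Results for some of these genes are not reported here. No replicates were identical, and the fits were tested on simulated data. Alternatives were DESeq2's size factors, no filter, at least 10 counts in every tumor, no robust dispersions, DESeq2 1.42.0 with and without apeglm 1.24.0, protein-coding genes alone, thinned counts, tumor number as a block, 1 fit of 13 tumors, and leaving out each tumor.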

Additional observations from a re-analysis of the deposited data

Results flagged for a closer look

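In oral WT tumors, 1 tumor lay far from the other 3 for 2 members. Krt7 was at 184.36 CPM in oral WT tumor 4, with a gap to the nearest tumor of 97.4% of the group's range, and the next value was 26.9 CPM. Krt19 was at 88.276 CPM in the same tumor, with a gap of 90.6% of the range, and the next value was 18.6 CPM. Both gaps exceed Dixon's 95% critical value for 4 samples, which chance passes in about 1 in 20 groups. The tumor also had 571.24 CPM of skeletal muscle markers against 15.1 to 28.3 CPM in the other oral WT tumors, and the part of this in the keratin values was not tested. Without it Krt7 differed by 4.80 and Krt19 by 5.14 on the log2 scale between pancreatic and oral WT tumors.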

How the results depend on the processing

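In WT tumors the number of members called higher in the pancreas was 5 or 6 under every alternative run, and in KO tumors 4 or 5. In oral tumors it was 0 under every alternative for KO against WT. For pancreatic KO against WT it was 1 with no filter, 1 with tumor number as replicate block, 2 with DESeq2 and 2 with DESeq2 and apeglm. For the difference of the KO effects it was 2 with DESeq2 and ran from 0 to 3 when each tumor was left out. Of the 503 values of single members under an alternative, 463 kept their direction and side of the threshold, 17 gained a call, 2 lost it and 21, none of them called, reversed.

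With the block, reversed values were 0.538 for Krt19 in oral KO against WT and 0.189 for Krt8 and 0.051 for Krt18 in pancreatic KO against WT, while Krt20 was called there (-2.15, adjusted p = 0.0140). Tumors share only a number in the labels: deviations of same-numbered tumors from their group means correlated between -0.187 and 0.426, and 1 of 3 pancreatic KO and 0 of 4 pancreatic WT tumors correlated best with their own number in the pancreatic WT and oral WT group. The block changed no other call of a member. Leaving out each tumor, oral KO against WT ran from -0.792 to 2.275 for Krt7, -0.685 to 0.735 for Krt19 and -0.733 to 0.791 for Krt23. Pancreatic KO against WT ran from -0.191 to 0.159 for Krt8 and -0.333 to 0.115 for Krt18, pancreatic against oral KO from -0.138 to 1.352 for Krt23, and the difference of the KO effects from -2.552 to 0.557 for Krt7 and -1.327 to 0.271 for Krt19. Krt20 in pancreatic KO against WT was called with no filter (-2.003, adjusted p = 0.0390). The causes of these changes were not tested.

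The number of genes called in all depended more on the processing. It was 2614 for oral KO against WT, 27 with protein-coding genes alone, 65 with the block, 4004 with DESeq2, 4624 in 1 fit of 13 tumors and 36 to 2616 without 1 tumor. For pancreatic KO against WT it was 155, with 10 for protein-coding genes alone, 75 with at least 10 counts in every tumor, 239 with no filter, 590 with the block, 1111 with DESeq2, 890 with apeglm and 43 to 269 without 1 tumor. For pancreatic against oral it was 3832 in WT, with 2431 for at least 10 counts in every tumor, and 6252 in KO, with 2869 for protein-coding genes alone, 3697 with the block and 3241 to 4988 without 1 tumor. For the difference of the KO effects it was 3168, with 791 for protein-coding genes alone, 1926 for thinned counts, 1460 with the block and 1510 to 4162 without 1 tumor. The oral KO group has 2 tumors, which limits every oral genotype comparison, and Krt20 has too few oral counts for a test there.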
